A study of Mus musculus with 36 samples.

Results

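The genes described here are 8 purinergic receptor and enzyme genes of microglia, the resident macrophages of the brain: P2ry12, P2ry13, P2ry6, Gpr34, P2rx7, P2rx4, Entpd1 and Adora3. They were picked by gene symbol from a table of 24940 genes, and all 8 were present and passed the low-count filter in each fit. They were followed through 36 libraries of poly(A) RNA-seq, 30 from frozen pieces of mouse cortex, corpus callosum and striatum and 6 from sorted microglia. All animals were male. They came from the MBP29-hα-syn line, a model of multiple system atrophy (MSA) in which the promoter of the oligodendrocyte gene Mbp drives a human α-synuclein transgene, or were controls, which the protocol calls wild type. The line is called MSA below. In the bulk tissue, both genotypes had eaten either AIN-76A chow (placebo) or the same chow with 1200 mg/kg PLX5622 for 12 weeks from 4 weeks of age. PLX5622 inhibits CSF1R, the receptor kinase that microglia need to survive. Sorted microglia were CD11b+ CD45low cells from the forebrain of 16-week-old mice of both genotypes, with no diet arm. The labels tag the sorted control libraries as heterozygous and the sorted MSA libraries as homozygous for the transgene line, whereas the protocol names wild-type controls, so the control genotype of the sorted cells is not certain.

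Each of the 4 cortex groups had 3 libraries. In corpus callosum the placebo control group had 3 and the others 2, in striatum the placebo MSA group had 3 and the others 2, and sorted microglia had 3 per genotype. Counts assigned to genes ranged from 4360339 to 28622744 per library. No library was a copy of another of its group: over 30 pairs, the chi-square divided by its degrees of freedom was 4.98 to 142. Nothing in the labels ties libraries to animals, and p-values measure only the spread between these libraries. The 2 PLX5622 libraries of control striatum carry PLX in the title and a no-treatment tag, and were grouped by title. A list of 20 microglial reference genes that holds none of the 8 (among them Cx3cr1, Csf1r, Tmem119 and C1qa) summed to 40.8 and 56.8 CPM (counts per 1000000 assigned counts) in these 2 libraries and to 710 and 741 CPM in the placebo control striatum. In sorted microglia the list summed to 70587 to 78621 CPM, and 7 neuronal markers to 1.94 to 5.75 CPM. Border macrophage markers (8 genes) summed to 745 to 933 CPM there, monocyte and neutrophil markers (9 genes) to 1056 to 1226 CPM, oligodendrocyte markers (7 genes) to 116 to 185 CPM and choroid plexus markers (8 genes) to 519 to 1607 CPM.

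Purinergic signalling starts when cells release ATP, ADP, UDP or adenosine. P2Y receptors such as P2RY12, P2RY13 and P2RY6 are coupled to G proteins and sense ADP or UDP, whereas P2X receptors such as P2RX4 and P2RX7 are ion channels opened by ATP. The ectoenzyme CD39, encoded by Entpd1, degrades extracellular ATP and ADP to AMP. A further ectoenzyme, CD73, turns AMP into adenosine, which acts on receptors such as ADORA3. GPR34 belongs to the P2Y-like family but responds to lysophosphatidylserine. P2RY12 is a widely used marker of resting microglia and guides their processes towards sites of ATP release, and P2RY6 is known for its part in uptake of cellular debris.

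P2ry12 (RefSeq transcript NM_001357008, chr3:59216271-59262985) and P2ry13 (NM_028808, chr3:59207894-59210882) lie next to each other on the minus strand of mouse chromosome 3, both inside Med12l, a Mediator subunit gene on the plus strand. Coordinates here are on mm10, which is GRCm38. P2rx7 (NM_011027, chr5:122643911-122684289) and P2rx4 (NM_011026, chr5:122707544-122729738) are neighbours on the plus strand of chromosome 5. P2rx7 overlaps Mir8115 on the same strand. P2ry6 (NM_183168) is at chr7:100937634-100964366 on the minus strand. Entpd1 (NM_009848) is at chr19:40659770-40741602 and Gpr34 (NM_011823) at chrX:13632769-13640858, both on the plus strand, with Gpr34 inside Cask on the opposite strand. Adora3 (NM_009631, chr3:105904421-105908928, plus strand) overlaps Tmigd3 on the same strand. The strand setting of the counting was not found in these sources. Reads of P2ry12, P2ry13, Gpr34, P2rx7 and Adora3 therefore cannot be told apart with certainty from those of the genes that overlap them.

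The 250 bases before the start are shown for P2ry12 and P2ry13, neighbours that were both called lower in control mice on the diet, and for P2rx4, whose level was called lower in none of the diet comparisons. The sequences are from RefSeq (GRCm38.p6) and read 5′ to 3′ on the gene's strand. Capitals mark the letters GAGGAA or, on the other strand, TTCCTC, a core found in sites of the myeloid transcription factor PU.1.

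P2ry12 promoter, chr3:59262986-59263235, minus strand: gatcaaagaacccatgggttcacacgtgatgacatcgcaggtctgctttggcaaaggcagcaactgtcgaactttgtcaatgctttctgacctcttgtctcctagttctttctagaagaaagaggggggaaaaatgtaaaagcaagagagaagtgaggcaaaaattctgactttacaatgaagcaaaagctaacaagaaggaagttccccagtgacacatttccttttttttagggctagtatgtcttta

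P2ry13 promoter, chr3:59210883-59211132, minus strand: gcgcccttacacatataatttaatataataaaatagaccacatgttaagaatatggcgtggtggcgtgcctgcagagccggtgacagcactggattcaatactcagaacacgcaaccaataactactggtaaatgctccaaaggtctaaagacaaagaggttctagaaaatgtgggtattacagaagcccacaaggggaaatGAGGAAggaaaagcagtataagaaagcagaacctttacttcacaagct

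P2rx4 promoter, chr5:122707294-122707543, plus strand: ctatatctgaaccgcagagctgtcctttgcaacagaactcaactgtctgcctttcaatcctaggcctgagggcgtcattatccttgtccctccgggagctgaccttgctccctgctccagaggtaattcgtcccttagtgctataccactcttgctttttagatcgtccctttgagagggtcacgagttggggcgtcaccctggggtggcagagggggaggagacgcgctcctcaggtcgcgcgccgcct

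The 6 letters were present in the same window of 23.3% of 32851 promoters in the table, which held 6 of the 8 genes. P2ry13 had 1 match, beginning 48 bases before the start (position -48), and Adora3 had 1 (-28, minus strand). Entpd1 had 2 at the start of the counted transcript (-235 and -227). These letters were not in the windows of P2ry12 or P2rx4, nor in those of P2rx7 and Entpd1 at other annotated starts. A match is a string of letters, not a measured site.

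In sorted control microglia P2ry12 was the most abundant of the 8, at 3033 ± 141 TPM (the deposited level per transcript length; mean ± SD, n = 3), rank 13 of all genes. Gpr34 followed with 1415 ± 110 TPM (rank 27) and P2ry13 with 983 ± 76.6 TPM (rank 43). Entpd1 reached 385 ± 29.9 TPM, P2ry6 292 ± 25.9, Adora3 135 ± 6.03 and P2rx7 112 ± 8.0. P2rx4 was lowest, at 46.6 ± 2.08 TPM (rank 2149). The ranges of neighbours in this order did not overlap between the 3 control libraries, and the MSA microglia had the same order. P2ry12, Gpr34 and P2ry13 stood at the top and the ATP-gated channels at the bottom.

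**Figure D1:**
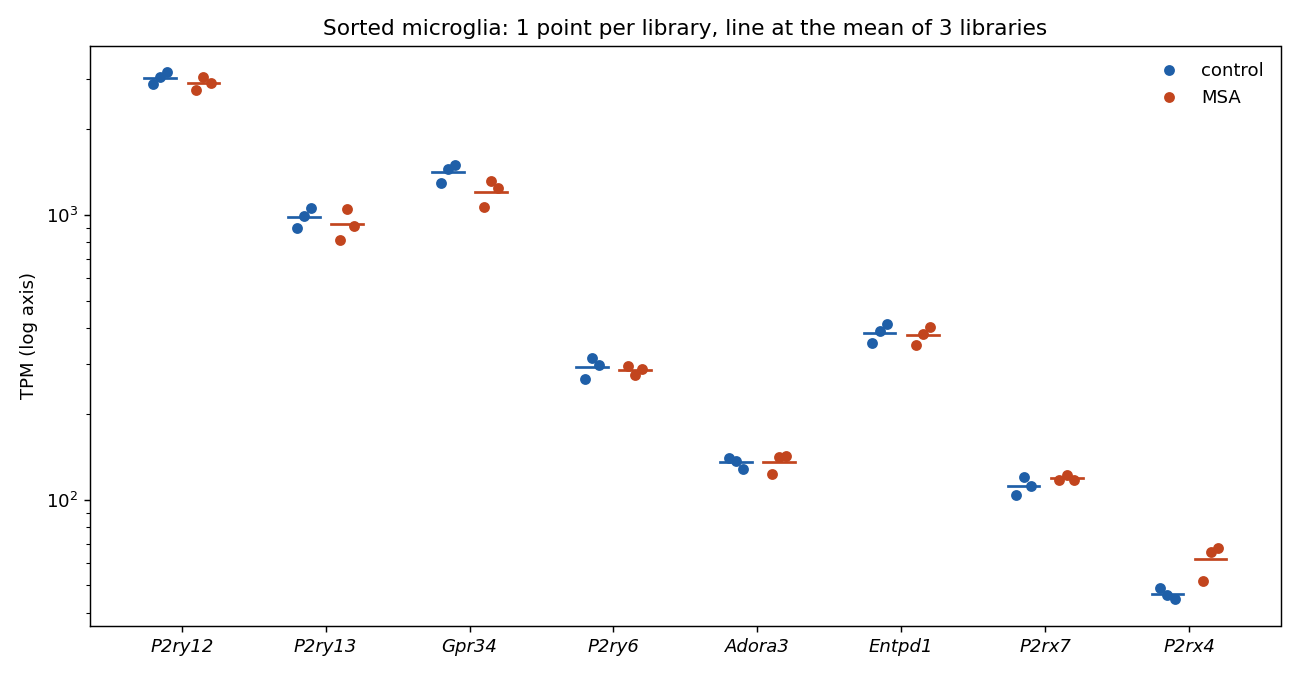
TPM of the 8 genes (log axis) in sorted microglia of control (blue) and MSA (orange) mice, 1 point per library, with a line at the mean of 3 libraries. P2ry12 lies highest and P2rx4 lowest in both genotypes, and the MSA mean of P2rx4 lies above the control mean (61.7 against 46.6 TPM).

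The comparison of sorted cells asked whether the transgene altered these genes in microglia. None of the 8 passed edgeR's quasi-likelihood test at an adjusted p under 0.05, against a background of 0.61% of 11810 genes called in either direction. At an unadjusted p under 0.05 there were 2 of 8, against 10.7% of all genes, and DESeq2 called 0. P2rx4 was 92.2, 86.9 and 83.4 CPM in the control libraries and 97.6, 124 and 127 CPM in the MSA libraries. All 3 MSA libraries lay above all 3 controls, with a log2 difference of 0.37 ± 0.09 (SE) and an edgeR adjusted p of 0.146. Gpr34 was 1717, 1920 and 1975 CPM in controls and 1414, 1750 and 1643 CPM in MSA, with overlapping ranges, a log2 difference of -0.27 ± 0.08 and an edgeR adjusted p of 0.260. P2ry12 was 5174, 5423 and 5614 CPM in controls and 4909, 5457 and 5175 CPM in MSA, a log2 difference of -0.10 ± 0.06. The other 5 genes differed by between -0.12 and 0.05 on the log2 scale. Without a low-count filter, P2rx4 (adjusted p 0.0136) and Gpr34 (0.0458) passed the edgeR test, and without MSA library 1, P2rx4 passed (0.0228). Markers of oligodendrocyte precursors (4 genes) summed to 0.734 to 1.34 CPM in the control and 10.6 to 11.5 CPM in the MSA libraries of sorted cells; their part in these values was not tested.

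In the bulk tissue of placebo control mice the order was different. P2ry12 was still highest per length, at 32.6 ± 6.80 TPM in cortex, 27.6 ± 3.44 in corpus callosum and 20.7 ± 4.42 in striatum, and Adora3 was lowest in all 3 regions. P2rx4, last in the sorted cells, was the third gene per length in each region, at 7.58 ± 2.03 TPM in cortex, 7.27 ± 0.24 in corpus callosum and 8.34 ± 0.53 in striatum. In cortex the ranges of Gpr34 and P2rx4, of P2ry13 and Entpd1, and of P2rx7 and P2ry6 overlapped, so the order within these pairs is not resolved. In corpus callosum the ranges of P2ry13, Entpd1, P2rx7 and P2ry6 overlapped from each to the next, and in striatum those of Gpr34, P2rx4 and Entpd1 and those of P2ry13 and P2rx7.

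Sorted control microglia held 83.4 times the CPM of P2ry12 in placebo control cortex, and the 20 reference genes had a median ratio of 91.4 with a range of 23.3 to 148. P2ry13 (169), P2ry6 (157) and Adora3 (258) were above that range, and Gpr34 (92.7), Entpd1 (72.8) and P2rx7 (41.9) were inside it. P2rx4 had a ratio of 5.76, under the lowest reference gene. In striatum and corpus callosum the P2rx4 ratio was 5.66 and 5.78, so its low enrichment in microglia was seen against each region.

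Regions were compared within the placebo controls. None of the 8 genes passed the edgeR test between corpus callosum and cortex (background 2.94% of 16080 genes called) or between striatum and cortex (background 12.9%), with 1 and 2 genes at an unadjusted p under 0.05, against 14.1% and 26.5% of all genes. P2rx7 was 8.24, 8.03 and 11.2 CPM in cortex and 22.9, 12.4 and 18.9 CPM in corpus callosum, with no overlap. Its log2 difference was 0.87 ± 0.26, with an adjusted p of 0.0777 in edgeR and 0.0365 in DESeq2, which called it and no other of the 8. Without placebo control callosum library 2 its edgeR adjusted p was 0.0298. The 7 oligodendrocyte markers summed to 2282 to 3678 CPM in these cortex libraries and to 16683 to 31129 CPM in the callosum libraries; their part in the P2rx7 difference was not tested. DESeq2 called none of the 8 between striatum and cortex.

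**Figure D2:**
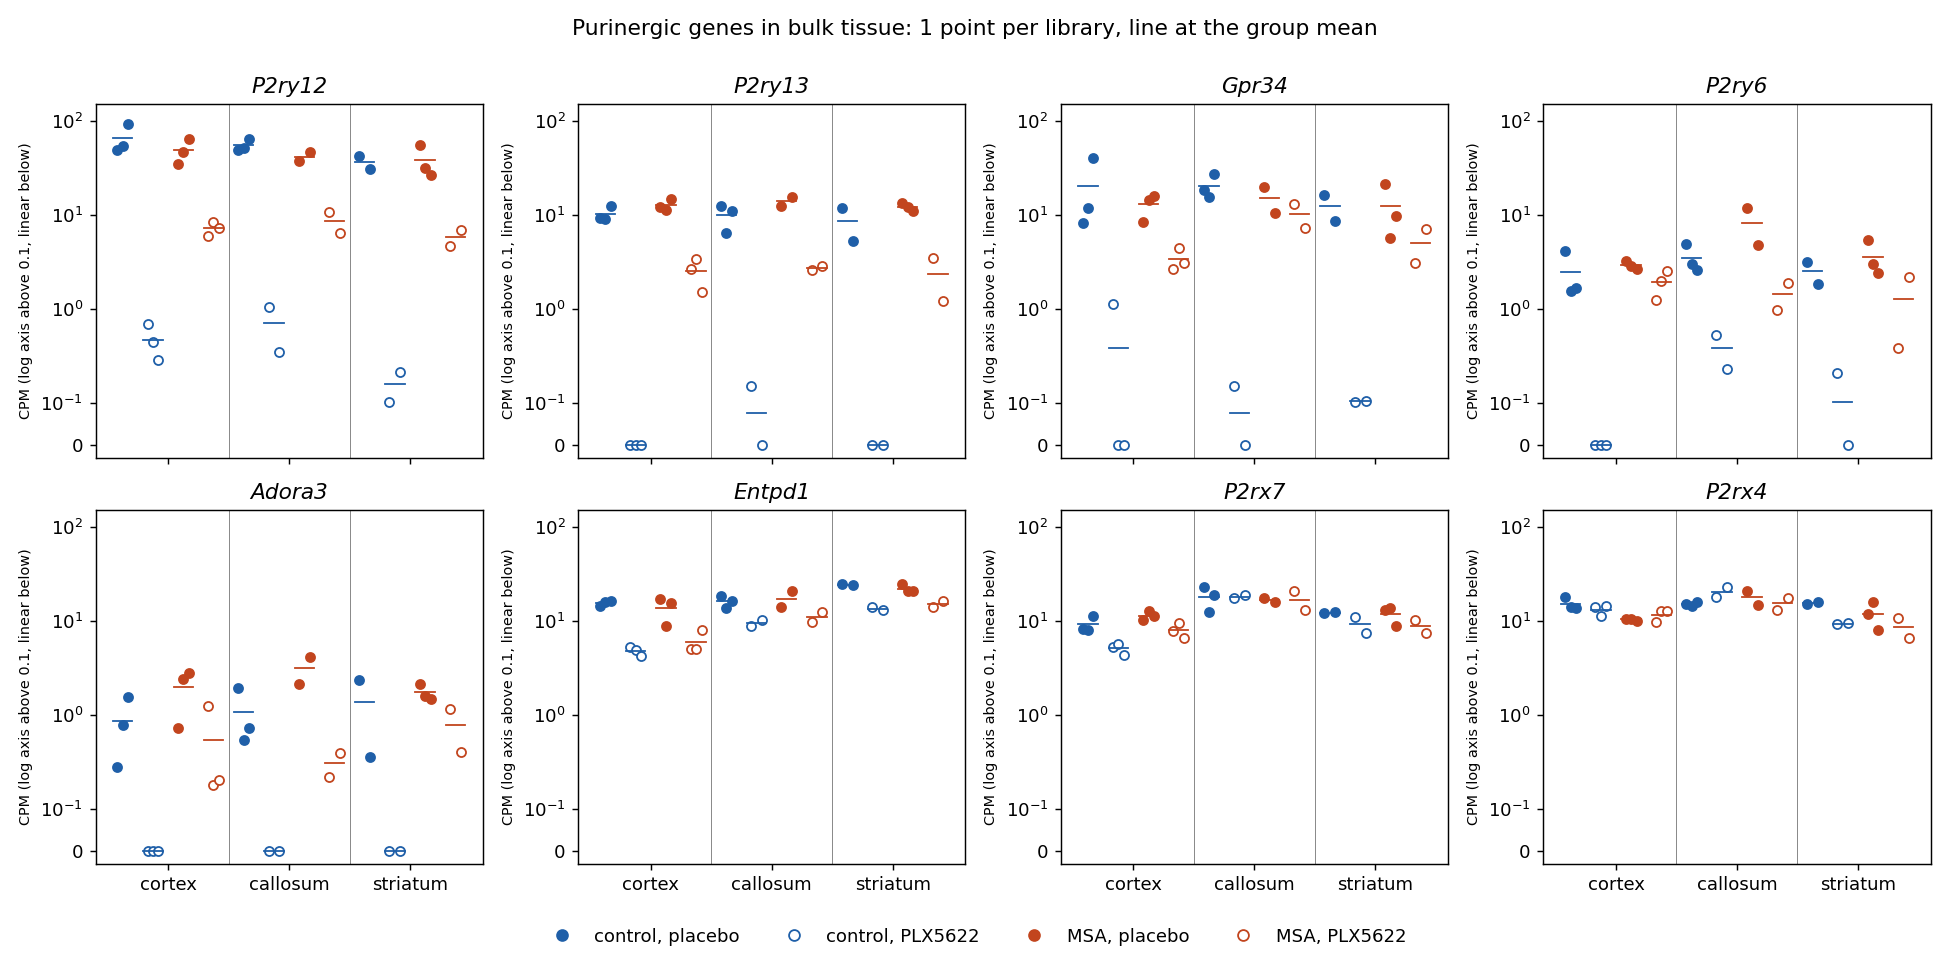
CPM of each gene in the 30 bulk libraries (log axis above 0.1, linear below), by region, with control mice in blue and MSA mice in orange, placebo filled and PLX5622 open, and a line at each group mean. P2ry12, P2ry13, Gpr34, P2ry6 and Adora3 drop to or near 0 in control mice on PLX5622 and less far in MSA mice. P2rx7 and P2rx4 lie at 55.5 to 134% of their placebo group means.

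The diet comparison in control mice asked what remained of these transcripts when microglia were depleted. In bulk tissue, fewer cells of a type and less RNA per cell cannot be told apart. In cortex 5 of 8 genes were called lower and none higher, against a background of 0.486% of 14600 genes called, all lower: P2ry12, P2ry13, P2ry6, Gpr34 and Entpd1. In corpus callosum 3 of 8 were called lower (P2ry12, P2ry13 and Gpr34), with 0.378% of 15881 genes called lower. The same 3 were called in striatum, where 0.329% of 14872 genes were called lower. The median log2 change of the 8 genes was -5.75 in cortex, -4.63 in corpus callosum and -5.34 in striatum as fitted, and -3.12, -2.97 and -3.61 with genes without any read on PLX5622 set to their bound, while all genes tested had medians of 0.02, 0.02 and 0.00. The reference list fell with them, with 19, 17 and 17 of 20 genes called lower.

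P2ry12 was 48.6, 53.7 and 92.1 CPM in the placebo control cortex and 0.688, 0.444 and 0.291 CPM on PLX5622. Those last values are 3, 3 and 2 reads. The groups did not overlap, and 0.73% of the placebo level was left (log2 change -7.09 ± 0.44, edgeR adjusted p 2.64e-06). In corpus callosum it went from 49.3, 51.1 and 63.5 CPM to 1.06 and 0.350 CPM (-6.15 ± 0.45, adjusted p 0.000194). In striatum it was 42.7 and 30.4 CPM on placebo and 0.104 and 0.213 CPM on PLX5622, or 3 reads in all. P2ry12 kept its call in all 3 regions when any 1 library was left out.

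P2ry13 had 9.35, 9.06 and 12.3 CPM in placebo control cortex and no read in any of the 3 PLX5622 libraries, which makes it at least 60.9-fold lower (floor of 3 counts over the group). In striatum it was 12.0 and 5.24 CPM on placebo and again had no read on PLX5622, at least 50.3-fold lower. In corpus callosum 403 reads over 3 libraries compared with 2 reads over 2 libraries, a ratio of 114 (95% counting interval 31.4 to 947). The calls of P2ry13 in these 3 regions held with each library left out. Intervals and floors cover counting error only.

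Gpr34 was 8.24, 11.8 and 40.5 CPM in placebo control cortex and 1.15, 0 and 0 CPM on PLX5622. The third placebo library was well above the other two, and it is 1 of the 6 libraries in which under 70% of the reads were assigned to genes. The log2 change was -5.96 ± 0.96 (edgeR adjusted p 0.0108), and without PLX5622 control library 2 the adjusted p was 0.0655. In corpus callosum Gpr34 was 18.5, 15.4 and 27.3 CPM on placebo and 0.152 and 0 CPM on PLX5622, a ratio of 249 (68.6 to 2057). In striatum it was 16.2 and 8.52 CPM on placebo and 1 read in each PLX5622 library, a ratio of 110 (30.2 to 916), and its call there was lost without PLX5622 library 1 or 2 (adjusted p 0.117 and 0.124).

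P2ry6, the UDP receptor gene, was 4.19, 1.55 and 1.69 CPM in placebo control cortex and had no read on PLX5622, at least 14.9-fold lower (edgeR adjusted p 0.0180). That call was lost without placebo library 1 or PLX5622 library 2 or 3 (adjusted p 0.0570 to 0.0846). In corpus callosum P2ry6 had 4.97, 3.01 and 2.57 CPM on placebo and 0.532 and 0.233 CPM on PLX5622, without overlap, at an edgeR adjusted p of 0.204. In striatum 45 placebo reads compared with 2, a ratio of 22.7 (5.92 to 193), with an adjusted p of 0.304.

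Adora3 was the rarest of the 8 in bulk tissue, with 2, 6 and 10 reads in the placebo control cortex libraries, and it had no read in any of the 7 control libraries on PLX5622. It was at least 5.05-fold lower in cortex, 7.18-fold in corpus callosum and 7.38-fold in striatum, and passed the edgeR test in none of them (adjusted p 0.666, 0.318 and 0.475). Tmigd3, which overlaps it, was at 0 in the same 7 libraries. The host genes on the other strand kept their levels within the spread in cortex. Med12l had 46.7 ± 7.87 CPM in placebo control cortex and 49.6 ± 12.0 on PLX5622, and Cask 81.2 ± 15.6 and 94.4 ± 12.5 CPM. Neither passed the test for diet in any region or genotype.

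The ATP-degrading enzyme gene and the ATP-gated channels kept more. Entpd1 was 14.4, 15.9 and 16.3 CPM in placebo control cortex and 5.27, 4.89 and 4.22 CPM on PLX5622, so that 30.8% was left (log2 change -1.68 ± 0.32, edgeR adjusted p 0.0374). This call did not hold when any 1 of the 6 libraries was left out (adjusted p 0.0722 to 0.197), although the log2 change stayed between -1.73 and -1.62. In corpus callosum 58.6% of Entpd1 was left and in striatum 55.7%, where it was 24.5 and 23.7 CPM on placebo and 14.0 and 12.9 CPM on PLX5622. The groups did not overlap in either region, and the adjusted p was 1.00 and 0.624.

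P2rx7 was 8.24, 8.03 and 11.2 CPM in placebo control cortex and 5.27, 5.63 and 4.36 CPM on PLX5622, a log2 change of -0.82 ± 0.29 without overlap (edgeR adjusted p 0.944). In corpus callosum it was 22.9, 12.4 and 18.9 CPM on placebo and 17.5 and 18.7 CPM on PLX5622, which are 100.0% of the placebo mean. In striatum 75.6% was left.

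P2rx4 was 17.9, 14.0 and 13.7 CPM in placebo control cortex and 14.0, 11.1 and 14.2 CPM on PLX5622, with overlapping ranges and 86.3% left. In corpus callosum the PLX5622 libraries were higher, at 17.7 and 23.0 CPM against 15.2, 14.4 and 15.9 CPM, and in striatum lower, at 9.18 and 9.36 CPM against 15.0 and 15.9 CPM. None of the P2rx7 and P2rx4 differences passed the test. The reference list was left at 5.22, 8.52 and 6.73% in cortex, corpus callosum and striatum, so the channels and Entpd1 kept a larger share than that list in each region. Whether other cells hold these transcripts was not measured here; in the sorted microglia P2rx4 was the least enriched of the 8.

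**Figure D3:**
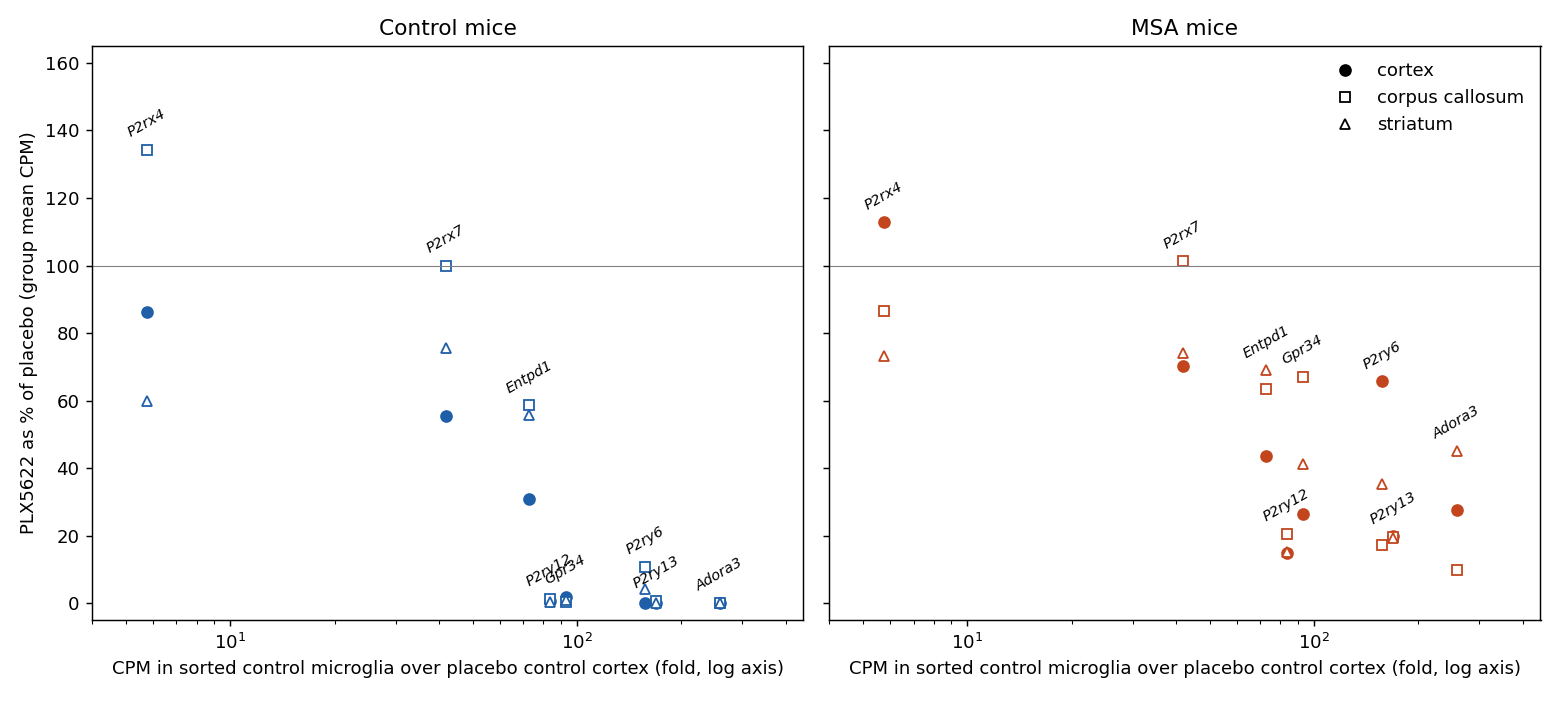
Share of each gene's placebo level left on PLX5622 (percent of group mean CPM) against its CPM in sorted control microglia over placebo control cortex (fold, log axis), in control mice (left) and MSA mice (right), with 1 symbol per region and a line at 100%. In controls P2ry12, P2ry13, P2ry6, Gpr34 and Adora3 lie at or under 10.9%, and P2rx4, with a ratio of 5.76, at 60.0 to 134%.

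In MSA mice the same diet left 14.9 to 20.6% of P2ry12 and 19.3 to 19.8% of P2ry13. The comparison asked whether the diet acted on these genes in MSA mice as in controls. P2ry12 was the only gene called in cortex (1 of 8 lower, background 0.0548%) and in striatum (1 of 8 lower, background 0.074%), and none of the 8 passed in corpus callosum (background 0.0693%), where 5 of 8 had an unadjusted p under 0.05, against 8.48% of all genes, and DESeq2 called 3. The median log2 change of the 8 was -1.60 in cortex, -1.57 in corpus callosum and -1.19 in striatum, against -0.03, -0.00 and -0.00 for all genes tested. The reference list had 7, 2 and 7 of 20 genes called lower. Its sum was left at 30.4% in cortex, 29.5% in corpus callosum and 25.8% in striatum. In control mice these shares were 5.22, 8.52 and 6.73%, so the list too kept more in MSA mice.

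P2ry12 was 34.7, 46.7 and 63.9 CPM in placebo MSA cortex and 5.93, 8.41 and 7.25 CPM on PLX5622, which is 14.9% left, against 0.73% in controls. The log2 change was -2.80 ± 0.32 (edgeR adjusted p 0.00970), and it lost its call without any 1 library other than placebo library 1 (adjusted p 0.0594 to 0.187). In striatum it was 55.9, 31.8 and 26.3 CPM on placebo and 4.64 and 6.92 CPM on PLX5622 (-2.67 ± 0.38, adjusted p 0.0253), a call lost without placebo library 2 or either PLX5622 library (0.0537 to 0.367). In corpus callosum it went from 37.1 and 46.1 CPM to 10.8 and 6.38 CPM (-2.39 ± 0.36, adjusted p 0.0562). In each region all PLX5622 libraries lay under all placebo libraries.

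P2ry13 kept about the same share in the 3 regions, 19.8% in cortex, 19.6% in corpus callosum and 19.3% in striatum. In cortex it was 12.1, 11.4 and 14.9 CPM on placebo and 2.69, 3.40 and 1.53 CPM on PLX5622, without overlap (-2.41 ± 0.38, edgeR adjusted p 0.0698). In corpus callosum it went from 12.4 and 15.5 CPM to 2.57 and 2.89 CPM, and in striatum from 13.5, 12.0 and 11.1 CPM to 3.48 and 1.22 CPM, both also without overlap (adjusted p 0.143 and 0.147).

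Gpr34 kept 26.3% in cortex, 67.1% in corpus callosum and 41.2% in striatum. In corpus callosum it was 19.8 and 10.4 CPM on placebo and 13.03 and 7.27 CPM on PLX5622, with overlap, where the control mice on PLX5622 had 2 reads in all. P2ry6 kept 65.7, 17.4 and 35.4% in the 3 regions, and Adora3 27.7, 9.85 and 45.2%, with at most 7 Adora3 reads in any MSA library on PLX5622. Entpd1 was at 43.5, 63.5 and 69.0%, P2rx7 at 70.2, 101 and 74.1% and P2rx4 at 113, 86.5 and 73.2% of placebo. For Entpd1, P2rx7 and P2rx4 the log2 changes of control and MSA mice were within 0.74 of each other in every region, and none of these 9 differences passed the test (smallest adjusted p 0.840).

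**Figure D4:**
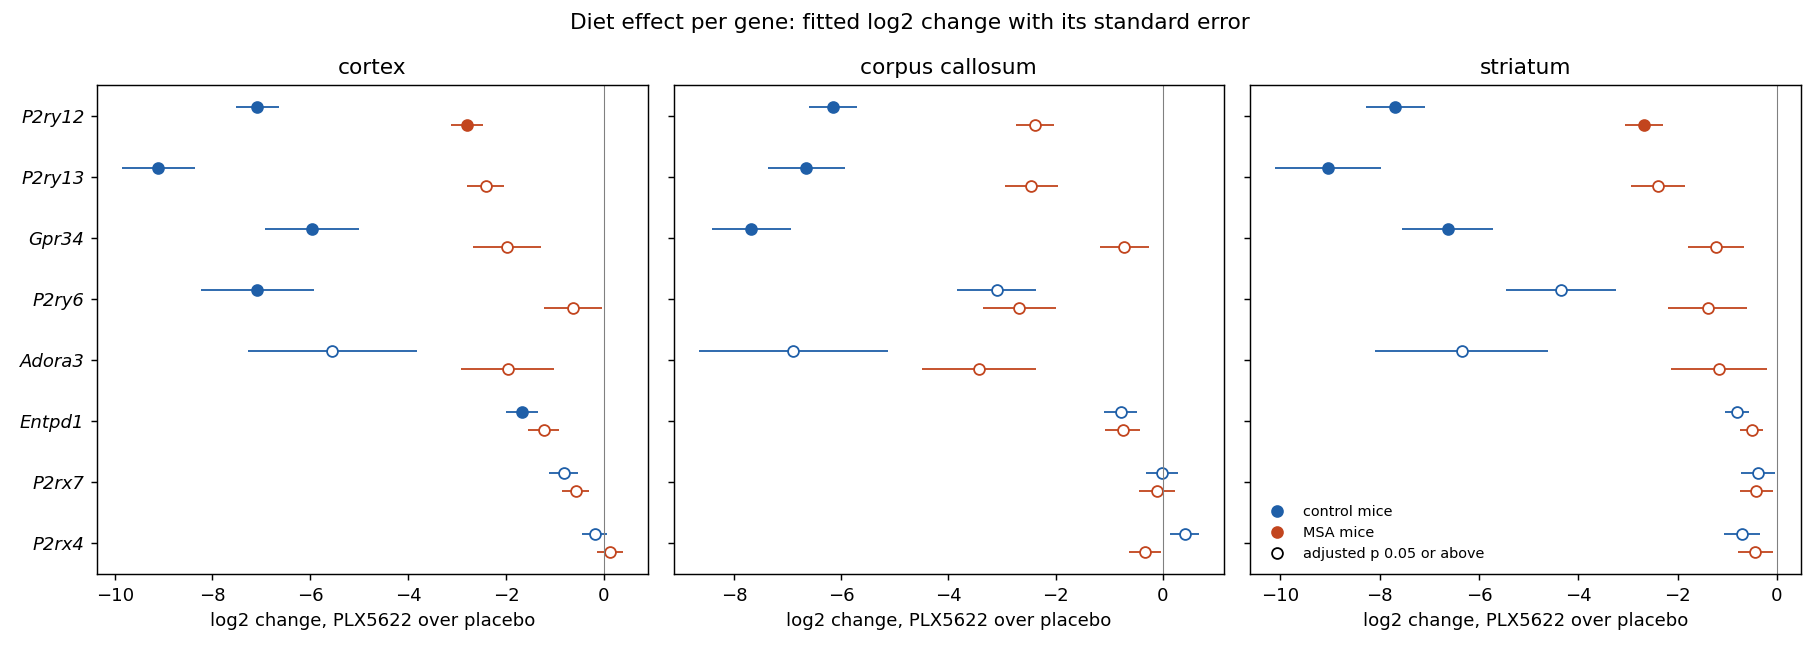
Fitted log2 change of each gene on PLX5622 over placebo with its standard error, in control (blue) and MSA (orange) mice and 1 panel per region; filled points passed an adjusted p of 0.05. The fitted size depends on the prior count where the PLX5622 group has no read (P2ry13, P2ry6 and Adora3 in control cortex, Adora3 in control corpus callosum, P2ry13 and Adora3 in control striatum). Control points lie left of MSA points for P2ry12, P2ry13 and Gpr34 in each region, and the difference between the genotypes is at most 0.74 for P2rx7, P2rx4 and Entpd1.

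The genotypes were also compared directly on PLX5622. In cortex 2 of 8 genes were called higher in MSA mice (P2ry12 and P2ry13, background 0.151% higher), in corpus callosum 3 (P2ry12, P2ry13 and Gpr34, background 0.189%) and in striatum 2 (P2ry12 and Gpr34, background 0.188%). P2ry12 was 3.88 ± 0.45 higher on the log2 scale in cortex (edgeR adjusted p 0.000902), 3.39 ± 0.44 in corpus callosum (0.0132) and 5.08 ± 0.65 in striatum (0.00558). P2ry13 was at least 14.0-fold higher in MSA cortex and 29.2 times higher in MSA corpus callosum (7.80 to 245), the latter with an adjusted p of 0.0457. Gpr34 was 119 times higher in corpus callosum (32.8 to 990) and 51.4 times in striatum (13.7 to 433, adjusted p 0.0477). In cortex both calls held with each library left out. In corpus callosum the P2ry12 call was lost without MSA library 1 (0.0808) and the P2ry13 call without control library 2 or either MSA library (0.0551 to 0.163). In striatum the P2ry12 call was lost without either control library or MSA library 3 (0.0729 to 0.0841) and the Gpr34 call without any 1 of the 4 libraries (0.0950 to 0.517).

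The difference between the diet effects was tested as an interaction, where a positive value means a smaller drop in MSA mice. P2ry12 passed in all 3 regions, at 4.29 ± 0.54 in cortex (edgeR adjusted p 0.00358), 3.76 ± 0.55 in corpus callosum (0.0187) and 5.01 ± 0.75 in striatum (0.0346). P2ry13 passed in cortex at 6.69 ± 0.97 (0.0242), a size that depends on the prior count because the control PLX5622 libraries had no read. Gpr34 passed in corpus callosum at 6.96 ± 0.89 (0.00802). That makes 2 of 8 in cortex (background 0.0959% of genes, all positive), 2 in corpus callosum (0.0945% positive) and 1 in striatum (0.0874%, all positive). The P2ry12 interaction in cortex and the Gpr34 interaction in corpus callosum held with each library left out. The others were lost without some single libraries, P2ry12 in corpus callosum without 6 of 9 (0.0531 to 0.154), P2ry12 in striatum without 6 of 9 (0.0830 to 0.311) and P2ry13 in cortex without 9 of 12 (0.0512 to 0.0923). The remaining Gpr34 and P2ry13 interactions were positive and did not pass (adjusted p 0.180 to 0.912). In a fit with the replicate number as a block, none of the 8 genes passed for the interaction in corpus callosum.

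The reference list summed to 259 to 330 CPM in the MSA cortex on PLX5622 and to 36.4 to 52.1 CPM in the control cortex on PLX5622, with Csf1r, C1qb, C1qc, Fcrls, Ly86 and Spi1 at 0 in the latter. In corpus callosum on PLX5622 it summed to 338 to 425 CPM in MSA and 49.6 to 94.6 CPM in controls. The striatum values on PLX5622 were 206 to 303 CPM in MSA and 40.8 to 56.8 CPM in controls. Border macrophage markers (8 genes) summed to 2.32 to 5.21 CPM in MSA and 1.89 to 6.88 CPM in control cortex on PLX5622, with Mrc1 and Ms4a7 at 0 in both. Monocyte and neutrophil markers (9 genes) summed to 2.66 to 15.6 CPM in MSA and 1.45 to 2.98 CPM in control cortex on PLX5622, with Ly6c2 at 0 in both and Chil3 at 0 in controls. In corpus callosum on PLX5622 they summed to 10.8 to 14.4 CPM in MSA and 0.380 to 1.52 CPM in controls, and border macrophage markers summed to 6.77 to 8.15 and 4.32 to 5.01 CPM. In striatum on PLX5622 monocyte and neutrophil markers summed to 3.09 to 4.48 CPM in MSA and 0.744 to 1.77 CPM in controls, and border macrophage markers to 9.63 to 20.5 and 10.8 to 23.0 CPM. The part of these cells in the results was not tested. Choroid plexus markers (8 genes) were uneven in corpus callosum, at 3187 to 8184 CPM in placebo MSA and 1378 to 1489 CPM in control mice on PLX5622, against 250 to 344 CPM in placebo controls and 405 to 454 CPM in MSA mice on PLX5622. In striatum they summed to 67.2 to 3847 CPM in placebo MSA, 83.2 to 153 CPM in placebo controls, 48.0 to 366 CPM in controls on PLX5622 and 41.9 to 519.9 CPM in MSA mice on PLX5622. Their part in the callosum and striatum results was not tested.

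On placebo none of the 8 genes passed the edgeR test between genotypes. In cortex no gene of 14600 was called (background 0%), in corpus callosum 0.321% and in striatum 0.0336%. At an unadjusted p under 0.05 there were 0, 1 and 0 of the 8, against 3.52%, 8.53% and 3.75% of all genes, and DESeq2 called 0 in each region. The one was P2ry6 in corpus callosum, at 4.97, 3.01 and 2.57 CPM in controls and 11.8 and 4.79 CPM in MSA, with overlap and an edgeR adjusted p of 0.579. P2rx4 in cortex was 17.9, 14.0 and 13.7 CPM in controls and 10.5, 10.4 and 10.0 CPM in MSA, without overlap, at an adjusted p of 0.828.

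The level of a gene relative to microglia was described by its CPM over the summed CPM of the 20 reference genes in the same library, on the log2 scale and with no test. The P2ry12 ratio was -3.68 ± 0.34 (SD) in placebo control cortex and -4.32 ± 0.08 in placebo MSA cortex, -3.96 ± 0.28 and -4.96 ± 0.42 in corpus callosum, and -4.33 ± 0.39 and -4.76 ± 0.35 in striatum. The libraries of the genotypes did not overlap in cortex and corpus callosum and overlapped in striatum. In sorted microglia the ratio was -3.83 ± 0.03 in controls and -3.82 ± 0.09 in MSA, so the offset of the bulk tissue was not seen there. P2rx4 was also lower against the list in placebo MSA than in placebo control tissue, by differences of -0.78 in cortex, -0.40 in corpus callosum and -0.87 in striatum, without overlap in any region, and was 0.48 higher in sorted MSA microglia, also without overlap. Gpr34 differed by -0.58, -1.07 and -0.57, without overlap in corpus callosum only, and Entpd1 by -0.46, -0.52 and -0.57, without overlap in striatum only. P2rx7 differed by 0.08, -0.69 and -0.50, with overlap in cortex only, and P2ry13 by 0.09, -0.08 and 0.19, with overlap in each. P2ry6 and Adora3 were higher against the list in placebo MSA tissue, with overlap in each region. Their differences were 0.16, 0.55 and 0.06 for P2ry6 and 1.05, 1.08 and 0.47 for Adora3. The reference list itself was higher in placebo MSA than in placebo control tissue without overlap in corpus callosum (1168 to 1414 against 806 to 925 CPM) and striatum (889 to 1164 against 710 to 741 CPM). In cortex it overlapped, at 718 to 1201 and 710 to 895 CPM. The part of the list's own level in these ratios was not tested.

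On PLX5622 the P2ry12 ratio of MSA mice was lower again, by a difference of -1.02 in cortex, -0.56 in corpus callosum and -0.70 in striatum from placebo MSA. P2ry13 moved by -0.70, -0.58 and -0.59. For P2ry12 the diets did not overlap in cortex and striatum. For P2ry13 they did not overlap in cortex and corpus callosum. P2rx7 was higher against the list on PLX5622 by 1.18 to 1.74 and P2rx4 by 1.52 to 1.86 over the 3 regions, without overlap in any of them, and Entpd1 by 0.52 to 1.43, with overlap in cortex. Gpr34 differed by -0.21 to 1.20, P2ry6 by -0.70 to 1.03 and Adora3 by -1.57 to 0.65, with no common direction. In control mice the ratio of P2ry12 also differed between PLX5622 and placebo, by -2.85 in cortex, -2.85 in corpus callosum and -4.01 in striatum. That of P2rx4 differed by 4.06, 4.04 and 3.18, and none of these overlapped. The sizes in control mice depended on the reference. Against the mean log2 CPM of the reference genes with reads they were -2.25, -1.53 and -3.13 for P2ry12. For P2rx4 they were then 4.66, 5.36 and 4.05. Behind the P2ry12 ratios of control mice on PLX5622 stood 3, 3 and 2 reads in the cortex libraries, 14 and 3 in corpus callosum and 1 and 2 in striatum.

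**Figure D5:**
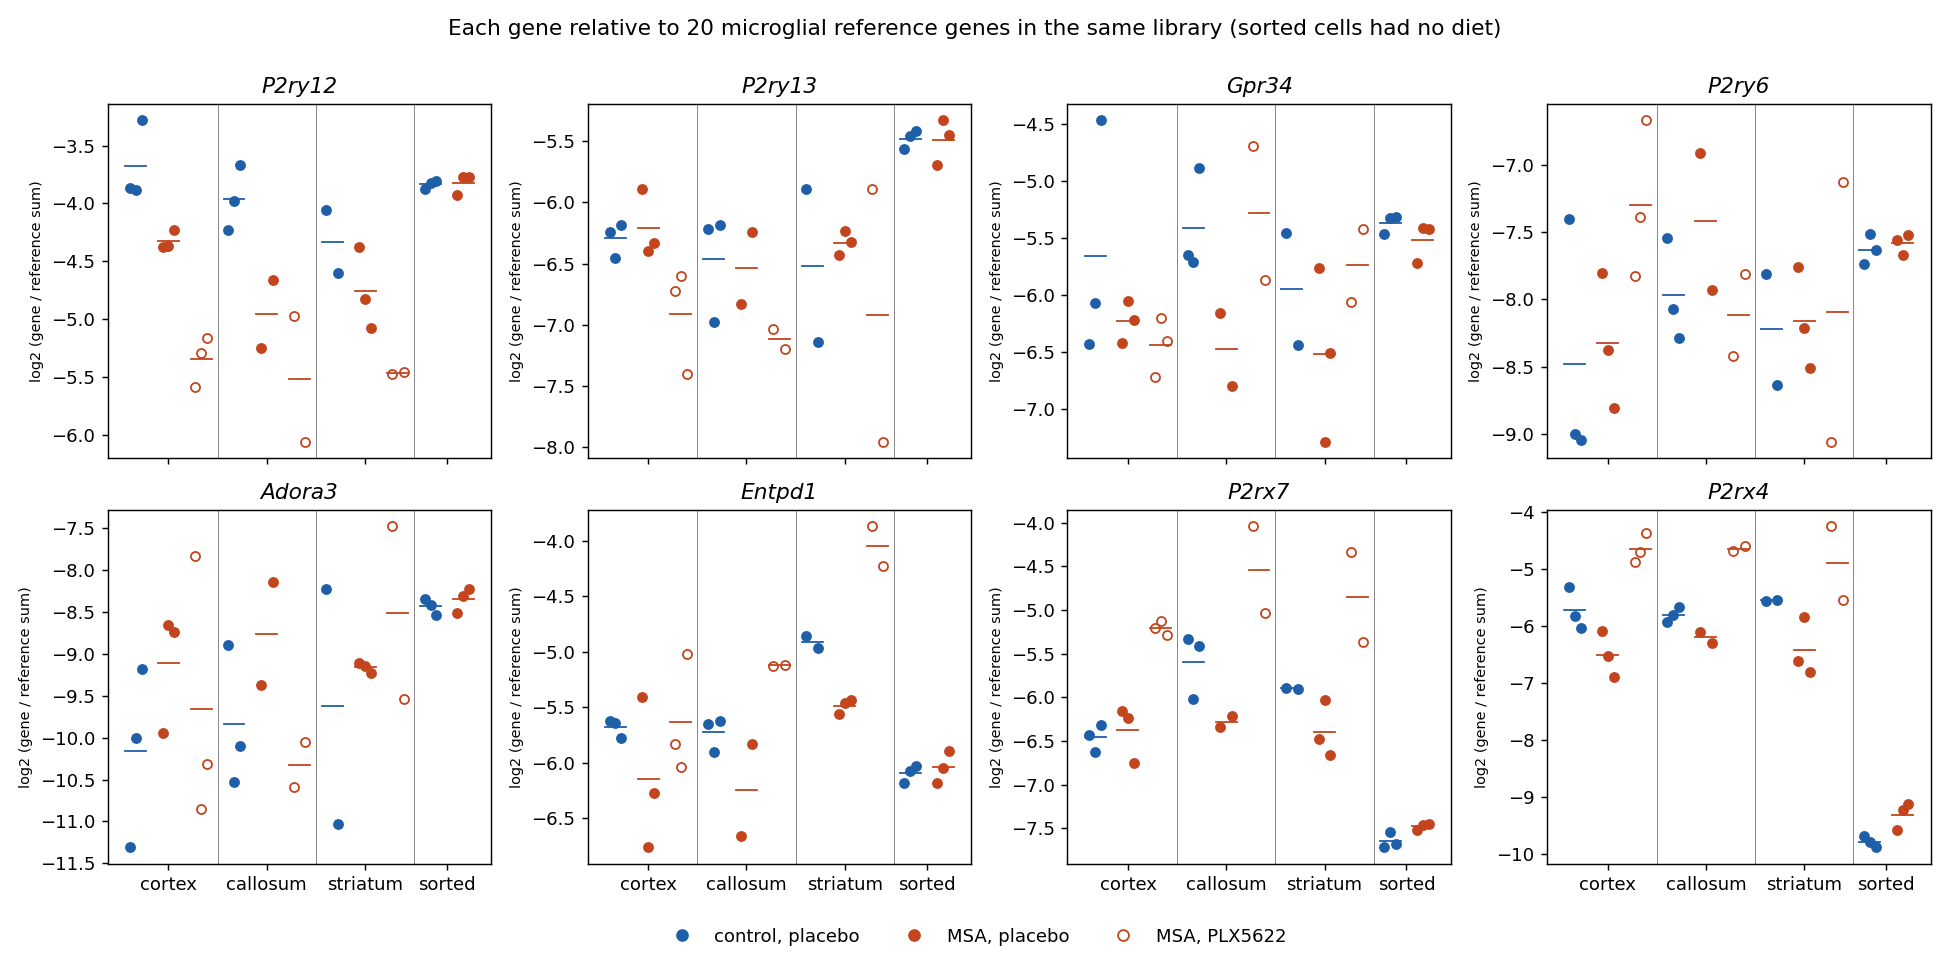
Log2 of each gene's CPM over the summed CPM of 20 microglial reference genes in the same library, for placebo control, placebo MSA and PLX5622-fed MSA mice by region and for sorted microglia, 1 point per library with a line at the group mean. The P2ry12 ratio steps down from placebo control to placebo MSA to MSA on PLX5622 in each region, and P2rx4 lies higher in bulk tissue (-6.90 to -4.25) than in sorted cells (-9.88 to -9.11).

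Bulk tissue and sorted cells also differed in this ratio within control mice on placebo. P2rx4 was 4.06 higher in cortex than in sorted microglia, and P2rx7 1.19 higher, whereas P2ry12 differed by 0.16 with overlapping libraries. P2ry13 was lower in cortex by a difference of -0.82 and Adora3 by -1.73, both without overlap. Frozen tissue and sorted cells were prepared differently, and preparation and compartment cannot be told apart.

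The rest of the purinergic system was read from a list of 39 other receptors, enzymes and transporters, of which 24 to 28 passed the low-count filter in bulk tissue and 18 in sorted microglia. None was called in any of the 15 regional comparisons of diet, genotype or their interaction, nor between genotypes in sorted microglia. Of all genes, 0.486% were called lower in control cortex on the diet and 0.61% in either direction in sorted microglia. With such shares few or no calls would fall in a list of this size, so their absence says little. The median log2 change in control mice on PLX5622 was -0.02 in cortex, 0.09 in corpus callosum and -0.00 in striatum. Between striatum and cortex of placebo controls 5 of 28 were called in either direction, all of them higher. Of all genes, 12.9% were called in either direction, so the count is close to that share. Adora2a, the adenosine receptor of striatal projection neurons, had 17.0 ± 5.37 CPM in cortex and 621 ± 24.2 CPM in striatum, and 0.198 ± 0.101 CPM in sorted control microglia. Nt5e, which encodes the AMP-degrading ectoenzyme CD73, had 6.65 ± 3.60 CPM in cortex and 48.1 ± 30.5 CPM in striatum, and 0.381 ± 0.127 CPM in sorted control microglia, where Entpd1 stood at 1132 ± 81.6 CPM. Entpd3, a further ATP-degrading enzyme, and Slc29a1, a nucleoside transporter, rose by 1.75 ± 0.33 and 1.17 ± 0.27 on the log2 scale (edgeR adjusted p 0.000658 and 0.00399), and P2ry1, named after its value was seen, by 2.16 ± 0.60 (0.0170).

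A second list held 16 genes that act with or downstream of these receptors (potassium channels, the inflammasome, G protein subunits and others). On PLX5622 Irf8, a transcription factor gene of myeloid cells, fell by 2.55 ± 0.46 on the log2 scale in control cortex (edgeR adjusted p 0.0238) and by 2.55 ± 0.35 in control corpus callosum (0.0110). It was the only 1 of 15 tested that was called in cortex, where 0.486% of all genes were called lower, and 1 of 2 of the 16 in corpus callosum (0.378% lower). Kcnk6, a potassium channel gene, was the other, at 8.01 ± 1.89 CPM on placebo and 1.27 ± 0.14 CPM on PLX5622. None of the list was called in control striatum, in MSA mice on the diet, or in sorted microglia. Of all genes, 0.329% were called lower in control striatum and 0.61% in either direction in sorted microglia. For the diet in MSA mice 0.0548% were called lower in cortex, 0.074% lower in striatum and 0.0693% in either direction in corpus callosum. Between striatum and cortex of placebo controls 3 of 15 were called (Bdnf and Casp1 lower, Kcnk13 higher), against 12.9% of all genes.

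Across the 30 bulk libraries, the genes whose log2 CPM followed each member most closely were, for P2ry12, Tmem119 (Pearson r 0.980) and Siglech, and for P2ry13, Cx3cr1 (0.979), Bin2 and Fcer1g. Gpr34 was closest to Fcgr3 (0.974), Trem2 and Tyrobp, P2ry6 to Csf1r (0.945), Rasal3 and Laptm5, and Adora3 to the overlapping Tmigd3 (0.963), Apbb1ip and Hcls1. Entpd1 was closest to Il10ra (0.841), Ikzf1 and Nckap1l. P2rx7 followed Sspn (0.856), Car14 and Gal3st1, a gene of myelin lipid synthesis, and P2rx4 followed Rtbdn (0.679), Gjc1 and 4930447C04Rik. Among P2ry12, P2ry13, P2ry6, Gpr34 and Adora3 the 10 pairwise correlations were 0.769 to 0.974, and P2rx4 correlated with the same 5 at -0.09 to 0.11. These are descriptions over libraries that share regions, diets and depth, and no test was made.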

How the data were processed

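The submitters' processing notes name mm10, STAR, HOMER and DESeq2, without versions or settings. Values deposited for each gene and library were counts of reads, as whole numbers, and TPM, both made by the authors. TPM was used to order genes, to show their levels by group and as an alternative for the shares left, and in no test. The deposited TPM summed to 453451 to 559022 per library, so TPM values of different libraries are not on exactly the same scale. CPM is the count per 1e6 assigned counts. Each region's 4 groups were fitted together, sorted microglia alone and regions on all 30 bulk libraries, with filterByExpr (minimum count 10), TMM and the robust 2-sided quasi-likelihood F test of edgeR 4.0.16 (R 4.3.3). A call is a Benjamini-Hochberg adjusted p under 0.05 over all genes tested. Likeness used log2 CPM with a prior count of 2. The test was tried on simulated counts first.

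Alternatives were RLE factors, DESeq2 1.42.0, no filter, a replicate block, leaving out each library in turn, libraries with under 70% of reads assigned left out, 2 groups alone, TPM for levels and a mean log2 reference. The 8 genes and all lists were chosen with earlier results of these data known. Named genes were the 8 members, up to 4 called genes of smallest p per list and comparison, the overlapping genes beside their member, and 3 genes per member by correlation, of which 1 is not reported here.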

Additional observations from a re-analysis of the deposited data

Results flagged for a closer look

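The diet effect differed between control and MSA mice by an interaction test for 3 of the 8 genes. For P2ry12 the difference of the log2 changes was 4.29 ± 0.54 in cortex (edgeR adjusted p 0.00358), 3.76 ± 0.55 in corpus callosum (0.0187) and 5.01 ± 0.75 in striatum (0.0346). For P2ry13 it was 6.69 ± 0.97 in cortex (0.0242), and for Gpr34 6.96 ± 0.89 in corpus callosum (0.00802). All libraries behind these values lay lower on PLX5622 than on placebo in control mice, and all MSA libraries on PLX5622 lay above all control libraries on PLX5622. Of all genes, 0.0959%, 0.0945% and 0.0874% had a positive interaction called in cortex, corpus callosum and striatum. The summed microglial reference list also kept more on PLX5622 in MSA mice, at 30.4, 29.5 and 25.8% of placebo in these regions. In control mice it kept 5.22, 8.52 and 6.73%. The P2ry12 call was lost without any 1 of 6 of the 9 libraries in corpus callosum and in striatum, and the P2ry13 call in cortex without any 1 of 9 of the 12. The Gpr34 call held with each library left out, but rests on 2 Gpr34 reads in the control callosum libraries on PLX5622. With the replicate number as a block, none of the 8 genes passed for the interaction there.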

How the results depend on the processing

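Counts of the 8 genes called moved with the fit. With DESeq2 they were 2 lower for the diet in MSA cortex, 4 higher in MSA cortex on PLX5622, 5 lower in control and 3 lower in MSA corpus callosum, 2 lower in MSA striatum, 2 for the interaction in striatum, and 1 higher between corpus callosum and cortex. DESeq2 also called 3 for the interaction in cortex, 3 for that in corpus callosum and 3 higher in MSA striatum on PLX5622. Without the low-count filter the diet called 2 in MSA cortex, 2 in MSA corpus callosum and 2 in MSA striatum, the striatal interaction 2, and sorted microglia 2 (1 lower, 1 higher). Without the 6 libraries under 70% assigned, the diet called 2 in MSA cortex, 1 in MSA corpus callosum and 0 in MSA striatum, genotype on PLX5622 called 1 in striatum, and the interaction 1 in cortex and 0 in striatum. With 2 groups alone the diet called 2 in control cortex, 2 in MSA cortex and 1 in MSA corpus callosum, and genotype on PLX5622 called 1 in cortex and 0 in corpus callosum.

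Whether replicate numbers pair the samples was not settled. Same-numbered libraries of different groups correlated over 0.1 in 6 of 18 pairs in cortex and 1 of 10 in corpus callosum. In striatum 5 of 10 did, and in microglia 1 of 3. For libraries with different numbers these were 12 of 36, 5 of 20, 3 of 20 and 0 of 6. Only groups within a region or within sorted cells were compared, and with few libraries per group the correlations depend on each other. With the replicate block the diet called 2 in control cortex and 2 in MSA striatum, the interaction 1 in cortex, 0 in corpus callosum and 2 in striatum, and genotype on PLX5622 called 0 in corpus callosum.

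With 1 library left out, the diet called 2 to 4 in control cortex, 0 to 1 in MSA cortex, 3 to 3 in control and 0 to 0 in MSA corpus callosum, 2 to 3 in control striatum and 0 to 2 in MSA striatum. Genotype on PLX5622 called 2 to 2 in cortex, 1 to 3 in corpus callosum and 0 to 1 in striatum. The interaction called 1 to 2 in cortex, 1 to 2 in corpus callosum and 0 to 2 in striatum, sorted microglia 0 to 1, and corpus callosum against cortex 0 to 1. P2rx7 on the diet in corpus callosum, close to 0 as reported, ranged from -0.213 to 0.192 in controls with 1 library left out, positive without placebo library 1 (0.192) or 3 (0.00146), and was 0.00747 without the 6 libraries. In MSA it ranged from -0.417 to 0.156, positive without PLX5622 library 3. Adora3 in sorted microglia ranged from -0.0689 to 0.0263, positive without control library 1 (0.000618) or MSA library 1 (0.0263). Against the mean log2 reference P2rx4 was higher on the diet by 1.72 in MSA corpus callosum (1.56 as reported). The causes of these changes were not tested. RLE factors moved none of the counts by over 1.5 times, and TPM moved none of the shares left beyond their spread.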
